A study of Mus musculus with 12 samples.

Results

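The oxidative and metal stress genes examined here are 10 protein-coding mouse genes, Mt1, Mt2, Hmox1, Nqo1, Gclc, Gclm, Txnrd1, Srxn1, Slc7a11 and Nfe2l2, of 21887 protein-coding genes placed on the chromosomes. They form a named list chosen by function, and every peak with its midpoint inside one of them or within 5 kb of its start or end was taken as theirs. All 10 were found by symbol in a RefSeq gene table. Chromatin immunoprecipitation and sequencing was done on the back skin of 8- to 10-week-old mice, in 12 samples forming 6 groups of 2. Wild type (WT) skin was examined with an H3K4me3 antibody at T0 and at 6 h and with a p53 antibody at T0 and at 6 h, and K17KO skin with the p53 antibody at T0 and at 6 h. The labels give every sample, T0 and both genotypes included, the same treatment, ionizing radiation of 5 Gy. The labels read here give no strain or sex, do not say how the K17KO allele was made and do not say whether replicates are separate animals.

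The measurements are 3 lists of peaks, regions in which sequenced fragments pile up above a background estimate, for p53, for p53 in K17KO and for H3K4me3. The p53 list without a genotype in its name is called WT here, which is an inference. No list names a time point or a sample, so T0 and 6 h could not be compared and no value has a replicate error. The lists hold 2909 WT p53, 1101 K17KO p53 and 5464 H3K4me3 peaks, with medians of 7, 11 and 148 fragments at the summit. Among cell type markers, 3 of 5 keratinocyte genes (Krt1, Krt10 and Krt15) had an H3K4me3 peak, while Krt5 and Krt14 had none. Of 3 genes of other organs 0 had one. Of 3 genes for each further cell type, 1 fibroblast, 1 melanocyte and 1 adipocyte gene had a peak, and 0 endothelial, 0 immune and 0 skeletal muscle genes. The share over all protein-coding genes was 23.9%. Counts of 0 or 1 among 3 genes are close to it, so the markers do not check the tissue. Actb and Gapdh, active in nearly all cells, had no H3K4me3 peak by the same rule, so a missing peak in this list does not show a missing mark.

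NRF2, the transcription factor encoded by Nfe2l2, is held at low levels by the ubiquitin ligase adaptor KEAP1 and accumulates when oxidants or electrophiles modify KEAP1. With small MAF proteins it binds antioxidant response elements in genes for glutathione synthesis, thioredoxin reduction, quinone reduction and haem breakdown. Metallothioneins are small cysteine-rich proteins that bind zinc, copper and cadmium, and their genes are switched on through metal response elements by the zinc-sensing factor MTF1. p53, activated by DNA damage, acts on redox control through genes such as the sestrins, and is known to repress Slc7a11 in some cells. H3K4me3, trimethylated lysine 4 of histone H3, marks active gene starts.

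Promoter sequences are shown for Mt2, Nqo1 and Nfe2l2, whose windows overlapped an H3K4me3 peak, for Mt1 as the neighbour of Mt2, and for Srxn1 as a gene with no peak. Each is the 250 bases before the start site, 5′ to 3′ on the gene's strand, from RefSeq (GRCm38.p6, the coordinates of mm10). Capitals mark matches, on either strand, to the antioxidant response element core TGACNNNGC, the AP-1 core TGANTCA or the metal response element cores TGCACNC and TGCGCNC. The Mt2 stretch is chr8:94172368-94172617 on the plus strand, that of Mt1 chr8:94178839-94179088 (plus) and that of Nqo1 chr8:107403206-107403455 (minus). The Nfe2l2 stretch is chr2:75704664-75704913 (minus) and that of Srxn1 chr2:152105274-152105523 (plus).
Mt2: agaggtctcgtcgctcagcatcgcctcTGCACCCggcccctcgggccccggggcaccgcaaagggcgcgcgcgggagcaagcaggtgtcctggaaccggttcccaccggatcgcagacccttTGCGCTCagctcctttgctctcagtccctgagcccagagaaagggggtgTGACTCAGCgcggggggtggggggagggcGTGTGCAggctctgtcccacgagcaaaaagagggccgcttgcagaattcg
Mt1: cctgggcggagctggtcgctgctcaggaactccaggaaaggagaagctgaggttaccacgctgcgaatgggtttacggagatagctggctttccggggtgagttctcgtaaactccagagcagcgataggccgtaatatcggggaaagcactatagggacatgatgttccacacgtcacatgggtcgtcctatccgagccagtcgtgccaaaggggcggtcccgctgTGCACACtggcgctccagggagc
Nqo1: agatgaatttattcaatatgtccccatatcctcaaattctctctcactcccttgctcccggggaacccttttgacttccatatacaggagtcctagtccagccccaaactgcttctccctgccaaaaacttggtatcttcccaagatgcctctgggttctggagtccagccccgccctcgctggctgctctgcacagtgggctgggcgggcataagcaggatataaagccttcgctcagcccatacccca
Nfe2l2: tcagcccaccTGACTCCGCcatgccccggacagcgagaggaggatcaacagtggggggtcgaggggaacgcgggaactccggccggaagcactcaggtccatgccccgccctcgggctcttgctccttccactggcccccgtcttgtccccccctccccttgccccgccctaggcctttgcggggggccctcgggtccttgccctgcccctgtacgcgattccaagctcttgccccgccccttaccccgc
Srxn1: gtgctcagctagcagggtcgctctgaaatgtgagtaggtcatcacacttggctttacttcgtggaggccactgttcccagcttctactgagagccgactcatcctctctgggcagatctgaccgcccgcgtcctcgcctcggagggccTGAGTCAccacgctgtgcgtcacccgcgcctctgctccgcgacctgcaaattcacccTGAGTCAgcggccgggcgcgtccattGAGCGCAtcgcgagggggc

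The searched windows ran on for 50 bases past the start site, which is counted as position 0. Of the 10 members 8 had a promoter window, 10 windows in all since Txnrd1 has 3, and Hmox1 and Gclc had none. The antioxidant core was present in 5 of the 10 windows, against 12.4% of all 32851 windows, at Mt2, Gclm, Srxn1, Nfe2l2 and 1 of the Txnrd1 windows. The metal response element core was present in 4 of 10, at Mt1, Mt2, Gclm and Srxn1, against 25.7% of all windows. Mt2 carried 4 such cores, a number reached or passed by 0.517% of all windows, and Mt1 carried 3. The printed stretch of Mt1 shows 1 of its 3 and that of Mt2 shows 3 of its 4, the others lying past the start site. The AP-1 core was found at Mt2 and Srxn1 (7.81% of all windows). At Mt2 the antioxidant match TGACTCAGC, from -79 to -71, contains the AP-1 match, and at Gclm the antioxidant match from -134 to -126 overlaps a metal core from -138 to -132. Of all 4424 antioxidant matches 3.37% overlapped an AP-1 match. Srxn1 had AP-1 matches from -102 to -96 and from -45 to -39, and its antioxidant match lay past the start site. The GC box GGGCGG was found in 6 of 10 windows and in 35.7% of all. The p53 consensus decamer was found in 0 of 10 and in 8.36% of all windows. These matches are letters in a window and do not show that a factor bound there.

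No member had a p53 peak in either genotype, and 6 of 10 had an H3K4me3 peak. For p53 the counts were 0 of 10 in the WT list, where 6.75% of all protein-coding genes had a peak by this rule, and 0 of 10 in the K17KO list, where 3.79% did. At such shares a count of 0 among 10 genes is close to the background and is no result about these genes. For H3K4me3 the count was 6 of 10, with 23.9% of all protein-coding genes, and 23.0% of genes no longer than the longest member (Slc7a11, 134 kb). The genes with a peak were Mt1, Mt2, Hmox1, Nqo1, Gclc and Nfe2l2, and those without were Gclm, Txnrd1, Srxn1 and Slc7a11. The members were chosen with results of these data known, so the counts were not tested.

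**Figure D1:**
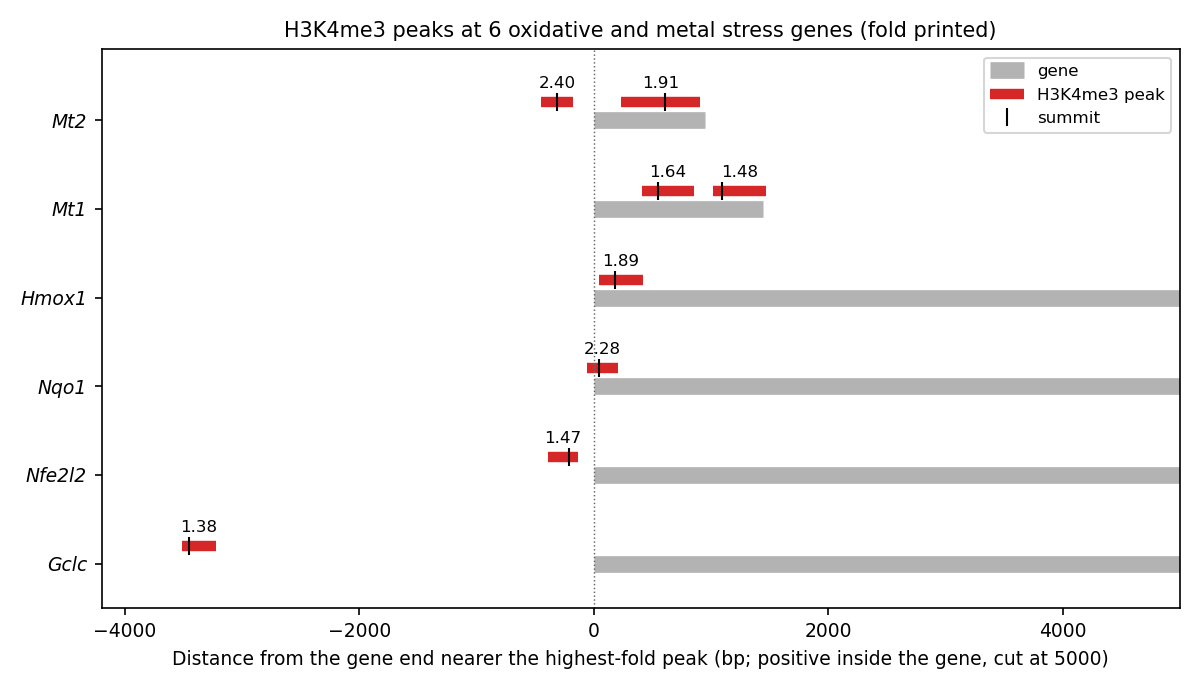
Positions of the 8 H3K4me3 peaks (red, with the summit as a black tick and the fold enrichment above) relative to 6 member genes (grey). The x axis gives the distance in bp from the gene end nearer the highest-fold peak, with positive values inside the gene. Peaks of Mt2, Mt1, Hmox1, Nqo1 and Nfe2l2 lie within 1.5 kb of that end, and the Gclc peak lies 3373 bp outside its gene.

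The metallothionein genes carried the most H3K4me3 peaks of the 10 genes. Mt2 and Mt1 lie in tandem on chromosome 8, Mt2 from 94172618 to 94173567 and Mt1 from 94178883 to 94180327, with 5315 bp between them. Each had 2 H3K4me3 peaks, whereas 4.2% of all protein-coding genes had 2 or more. Having 2 or more was not particular to them, since Txnip, Ephx1, Sesn2, Prdx2 and Ugdh of the wider pathway list described below did too. The 4 peaks of Mt2 and Mt1 lay within 8.19 kb, none counted for both genes, and no other protein-coding gene held any of them.

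At Mt2 the peaks stood on either side of the start site. The upstream peak, from 94172171 to 94172440, had a fold enrichment of 2.40 over the background, the highest of the 8, with 109 fragments at the summit (exact Poisson 95% interval 89.5 to 131) over a background of 44.9. Its summit lay 318 bp before the start site, and its last 73 bp overlapped the promoter window and hold the most distal metal core of the printed sequence. The downstream peak, from 94172848 to 94173528, lay inside the gene with a fold of 1.91, 156 fragments (132 to 182) over 81.3 and its summit 609 bp past the start site. The 407 bp between the peaks hold the start site, the antioxidant match and the remaining metal cores. In its own list the upstream peak ranked at the 78.3rd percentile by fold and the 96.6th by −log10 p, and the downstream peak at the 66.3rd and 92.5th.

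At Mt1 both peaks lay past the start site, with their midpoints and summits inside the gene. The second ran past the gene end at 94180327. The peak from 94179294 to 94179735 had a fold of 1.64, with 169 fragments (144 to 196) over 103 and the summit 341 bp past the start site. The peak from 94179897 to 94180355 had a fold of 1.48, with 124 fragments (103 to 148) over 83.2 and the summit at 891 bp. Between these peaks lay 161 bp, and whether they are separate marked sites was not tested. Neither reached the promoter window printed above. Both folds were below the list's median of 1.66, and both Mt2 folds were above it. Noncoding genes lay nearby, Gm39227 516 bp from the upstream Mt2 peak and Gm39228 3064 bp from the second Mt1 peak. The related metallothionein genes Mt3 and Mt4, on the same chromosome at lower coordinates, had no H3K4me3 peak by the rule, with the nearest 18.2 kb and 33.3 kb away.

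Hmox1 and Nqo1 each had 1 H3K4me3 peak at a gene end. Hmox1 encodes haem oxygenase 1, which breaks haem down to biliverdin, iron and carbon monoxide, and lies on chromosome 8 from 75093618 to 75100593. Its peak, from 75093662 to 75094037, lay inside the gene near the lower-coordinate end, with a fold of 1.89 and 137 fragments (exact Poisson 95% interval 115 to 162) over 72.0. Nqo1, which encodes a quinone reductase, lies on chromosome 8 from 107388225 to 107403205. Its peak, from 107402997 to 107403261, had a fold of 2.28, with 63 fragments (48.4 to 80.6) over 27.1, the lowest fragment count and the lowest background of the 8 peaks. Of the 8 peaks it was the one whose summit lay closest to a start site among the 4 genes with a promoter window, 41 bp past it. It overlapped 106 bp of the promoter window, including 56 bp of the printed stretch, which holds no match to the antioxidant, AP-1 or metal cores.

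Nfe2l2 itself had an H3K4me3 peak just outside its start. The gene lies on chromosome 2 from 75675513 to 75704663 on the minus strand. The peak, from 75704794 to 75705057, had a fold of 1.47, with 159 fragments (exact Poisson 95% interval 135 to 186) over 108, the highest background of the 8. The summit lay 211 bp before the start site, and 120 bp of the peak overlapped the printed promoter, including the antioxidant match TGACTCCGC from -240 to -232. The noncoding gene E030042O20Rik lay 1828 bp beyond the peak.

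Of the glutathione synthesis genes Gclc had an H3K4me3 peak, while Gclm and Slc7a11 had none by the rule. Gclc and Gclm encode the catalytic and modifier subunits of glutamate-cysteine ligase, the rate-limiting enzyme of glutathione synthesis, and Slc7a11 encodes the cystine transporter that supplies it. The Gclc peak, on chromosome 9 from 77751017 to 77751308, had a fold of 1.38, the lowest of the 8, with 136 fragments (114 to 161) over 98.2. It lay 3373 bp outside the gene, which runs from 77754535 to 77794489, and its −log10 q of 0.926 in the authors' deposited table misses a q-value of 0.1. With a window of 1 kb, or with q limits of 0.1 or 0.01, Gclc had no peak and the count of members was 5 of 10, where 21.1%, 22.0% and 18.4% of all protein-coding genes had an H3K4me3 peak. Gclm, on chromosome 3 from 122245487 to 122267215, had its nearest H3K4me3 peak 7.39 kb away, inside the neighbouring gene Dnttip2, with a fold of 1.76 and 223 fragments over 126. A window of 20 kb took it in, which raised the count to 7 of 10, beside 32.9% of all genes. Slc7a11, on chromosome 3 from 50364936 to 50499087, had its nearest 726 kb away, inside Noct, the largest distance of the 10.

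Neither thioredoxin system gene had an H3K4me3 peak. Txnrd1 encodes cytosolic thioredoxin reductase and Srxn1 sulfiredoxin, which restores overoxidized peroxiredoxins. Txnrd1, on chromosome 10 from 82833951 to 82897724, had its nearest H3K4me3 peak 135 kb away, inside Hcfc2, with a fold of 1.51. The nearest WT p53 peak, 134 kb away with a fold of 4.2 and 7 fragments over 0.906, overlapped that same H3K4me3 peak, as did 0.963% of WT p53 peaks with any H3K4me3 peak. Srxn1, on chromosome 2 from 152105524 to 152111376, had its nearest H3K4me3 peak 287 kb away, inside Sox12, with a fold of 2.08. Srxn1 thus had AP-1 and antioxidant matches in its promoter window and no peak of any list within 5 kb.

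**Figure D2:**
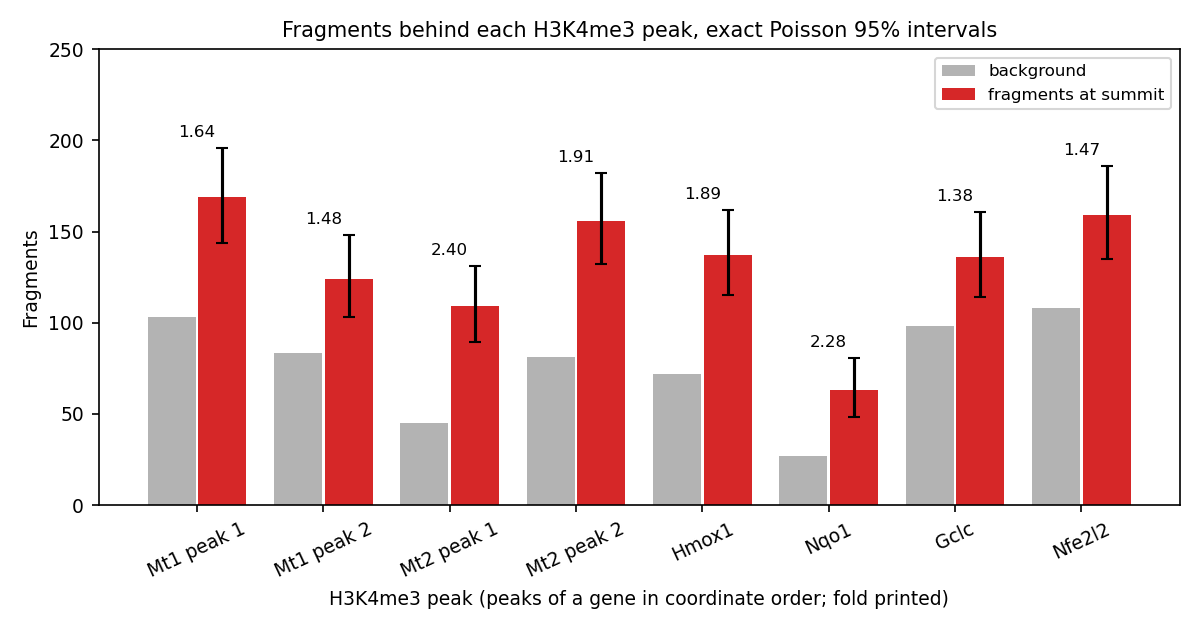
Bars give, for each of the 8 H3K4me3 peaks at member genes, the fragments at the summit (red, with exact Poisson 95% intervals for counting error only) and the background (grey), with the fold enrichment printed above. The fold was highest at the upstream Mt2 peak (2.40) and lowest at Gclc (1.38). Each interval lies above its background, which follows from listing only peaks called above it and is no further support.

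By fold the 8 member peaks ran from the 13.3rd percentile of the H3K4me3 list (Gclc) to the 78.3rd (Mt2), and by −log10 p from the 9.3rd (Gclc) to the 96.6th (Mt2). Their median fold was 1.76, beside 1.61 for the 4811 peaks counted for any protein-coding gene, and 4 of 8 exceeded the list's median. Their median fragment count was 136, beside 164, and their median width 334 bp, beside 338 bp. The background at the member peaks ran from 27.1 to 108 fragments, beside a median of 90.7 over the H3K4me3 list. The labels do not name the control behind this background, so whether a peak marks the presence of H3K4me3 or a difference from a marked control was not tested. When the list was limited to its upper 50% by fold, 3 of 10 members kept a peak (Mt2, Hmox1 and Nqo1), beside 10.8% of all protein-coding genes. In whole skin a fold cannot tell a mark in more cells from more of the mark per cell.

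**Figure D3:**
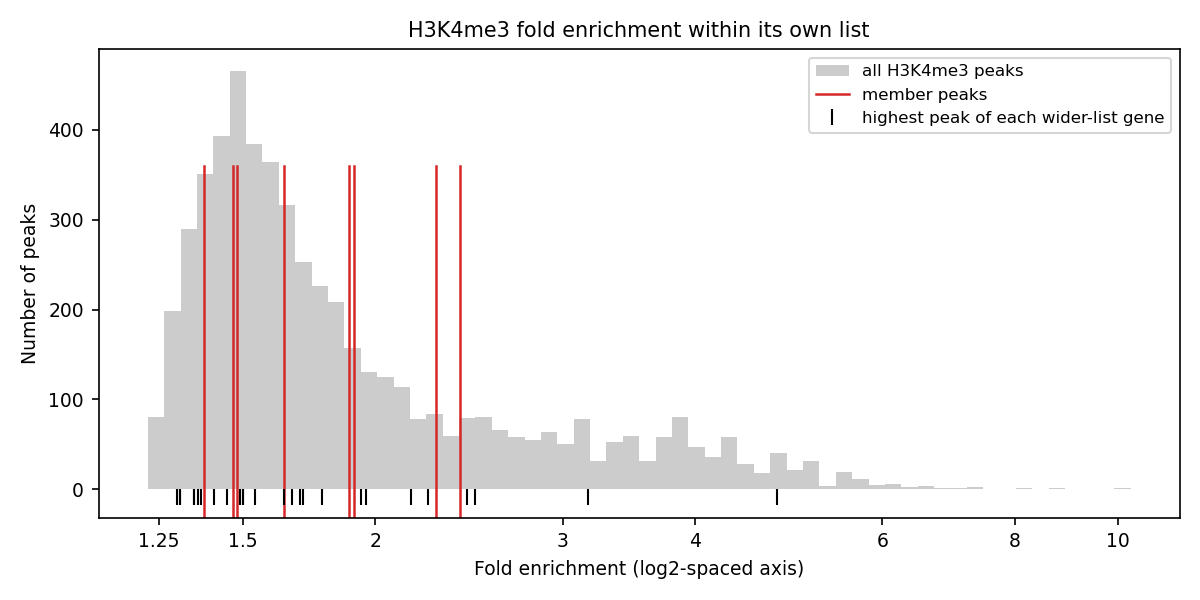
Histogram of the fold enrichment of all 5464 H3K4me3 peaks (grey; the x axis is spaced on a log2 scale and the y axis counts peaks), with red lines at the 8 member peaks and black ticks at the highest peak of each of 26 genes of the wider list. The member peaks fall between 1.38 and 2.40, on either side of the median of 1.66.

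The summits of the 6 member peaks with a known start site lay from 318 bp before it (Mt2) to 891 bp past it (Mt1), 4 of them past it. In the whole list, 3615 summits lay within 5 kb of a start site, of which 81.6% lay past it, with a median position of 219 bp past it, and 5.23% lay within 100 bp of it. Nqo1, at 41 bp, belongs to that last group. Nfe2l2 and the upstream Mt2 peak belong to the smaller share before the start site.

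The nearest p53 peaks of both lists lay outside the 5 kb limit for every member. In the WT list the nearest lay between 63.6 kb (Nfe2l2) and 671 kb (Gclc) away, with a median of 278 kb over the members and 242 kb over all protein-coding genes. In the K17KO list the distances ran from 13.7 kb (Nqo1) to 3790 kb (Mt1 and Mt2), with a median of 507 kb, beside 581 kb over all genes. In each p53 list 5 of 10 members lay farther from a peak than the median gene. For H3K4me3 the median distance was 1.82 kb, beside 66.7 kb for all genes.

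The WT p53 peaks nearest to the members had folds from 3.01 to 5.77, on either side of that list's median of 4.02. Mt1 and Mt2 shared the same one, 428 kb and 421 kb away, with a fold of 5.77 and 10 fragments over 0.906. The one nearest Nfe2l2 had a fold of 5.02 with 9 fragments over 0.992. Folds at the others were lower. They were 3.67 for Hmox1 at 483 kb, 3.15 for Nqo1 at 656 kb and 4.52 for Gclc at 671 kb. Gclm had 3.01 at 67.9 kb, Srxn1 3.51 at 99.2 kb and Slc7a11, the transporter gene p53 is known to repress, 3.51 at 78.7 kb. The distances place all of these outside any promoter of the members.

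Among K17KO p53 peaks the closest to a member was that of Nqo1, inside the neighbouring gene Nob1, with a fold of 3.45 and 13 fragments over 3.06. It lay 13.7 kb from Nqo1 and entered with a window of 20 kb, which raised the K17KO count to 1 of 10, beside 5.94% of all genes. The next closest were 42.1 kb from Srxn1 (fold 4.75), 210 kb from Gclc (3.95) and 222 kb from Nfe2l2 (5.14). Hmox1 had its nearest at 322 kb (6.17), Gclm at 692 kb (4.12), Txnrd1 at 1240 kb (5.09) and Slc7a11 at 1950 kb (4.0). Mt1 and Mt2 again shared a peak, with a fold of 4.44 and 8 fragments over 1.03. The K17KO list holds fewer peaks, and its median distance was larger over all genes as well.

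The depth limits what the absence of p53 peaks can say. The smallest number of fragments at the summit of a listed peak was 5 in the WT p53 list and 6 in the K17KO p53 list, so a site with fewer fragments would not be listed. Occupancy of the members below that level was not detectable. Calling also depends on the background, which is not known at the members, so a site at or above that level could be missed too. Folds of separate lists were not compared, since the lists do not have a common threshold.

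**Figure D4:**
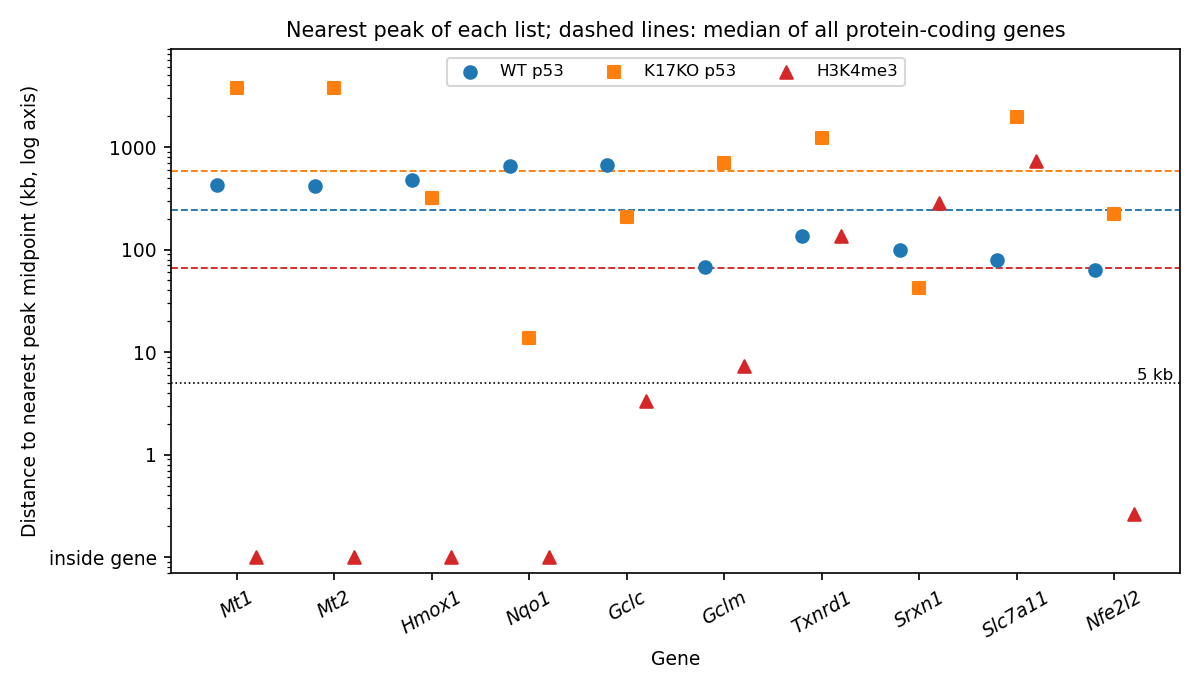
Distance in kb (log axis) from each member gene to the midpoint of the nearest peak of the WT p53 (circles), K17KO p53 (squares) and H3K4me3 (triangles) lists. Dashed lines give the medians over all protein-coding genes and the dotted line the 5 kb limit. Only H3K4me3 triangles, for 6 genes, lie below that limit.

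The other genes of the pathway were read from a list of 65 genes, grouped by role. H3K4me3 peaks were found at 26 of 65 (40%), beside 23.9% of all protein-coding genes, and their highest peaks lay inside the gene itself for 19, inside another gene alone for 5 and outside any gene for 2. p53 peaks were found at 2 of 65 in the WT list (3.08%, background 6.75%) and at 1 of 65 in the K17KO list (1.54%, background 3.79%). All 3 counts describe a list chosen with earlier results known.

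Regulators of NRF2 had the highest count by role, with an H3K4me3 peak at 6 of 8, beside 23.9% of all protein-coding genes. Keap1, the repressor of NRF2, had a fold of 2.44 at a peak 2109 bp outside the gene that rested on 28 fragments over 10.9. That peak lay past the far end of the gene, with its summit 11812 bp past the start site. Nfe2l1, a relative of NRF2, had 2.16 inside the gene, with 78 fragments over 35.5. The partner genes Maff (1.67) and Mafg (1.41), the autophagy receptor gene Sqstm1 (1.5) and the competing repressor gene Bach1 (1.35) had lower folds, and the Mafg peak lay inside Sirt7, past the far end of Mafg, with its summit 8767 bp past the start site. Mafk and Cul3, which encodes the ligase scaffold used by KEAP1, had none.

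Metal handling genes (Mtf1, Mt3, Mt4, Slc30a1, Slc39a10 and Slc39a14) had H3K4me3 peaks at 0 of 6. With 23.9% of all protein-coding genes carrying a peak, a count of 0 among 6 genes is close to the background. The metal sensor gene Mtf1, which drives Mt1 and Mt2, had its nearest H3K4me3 peak 87.4 kb away. The difference between roles was not tested.

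Glutathione genes had a peak at 3 of 13, a share close to the 23.9% of all protein-coding genes. Gpx3, the secreted glutathione peroxidase, had a fold of 1.96 with 34 fragments over 16.8, Ggt1 had 1.49 at a peak inside Lrrc75b, and Gpx4, which reduces lipid peroxides, had 1.31. Gss and Gsr, which make and regenerate glutathione, Gpx1 and the glutathione transferase genes Gsta1, Gsta4, Gstm1, Gstp1 and Mgst1 had none.

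Thioredoxin and peroxiredoxin genes had an H3K4me3 peak at 4 of 12, beside 23.9% of all protein-coding genes. Txnip, which encodes an inhibitor of thioredoxin, had a highest fold of 3.17 with 110 fragments over 34.0, at the 87.7th percentile of the list. The summit of that peak lay 3558 bp past the start site, toward the far end of the gene. Other peaks of Txnip had folds from 1.48 to 1.89, with 1.63 at the one whose summit lay 411 bp past the start site. The sestrin genes Sesn2 (1.71) and Sesn1 (1.64), known p53 targets, had a peak inside the gene and no p53 peak by the rule. The nearest WT p53 peak lay 15.6 kb from Sesn2 and 530 kb from Sesn1. The Prdx2 peaks (1.30 and 1.27) lay 3020 bp and 3592 bp outside the gene, inside Junb. Sesn3 had no H3K4me3 peak and had 2 WT p53 peaks, deep inside the gene, with folds of 4.2 and 4.02 and 7 fragments each. By comparison 0.699% of all protein-coding genes had 2 or more WT p53 peaks.

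Counts for the remaining roles stand beside the same 23.9% of all protein-coding genes with an H3K4me3 peak. Detoxification genes had a peak at 5 of 9. They were led by Ephx1, an epoxide hydrolase gene, at 4.78 with 57 fragments over 11.1, and Aldh3a1, an aldehyde dehydrogenase gene, at 2.48 with 34 over 13.1. Ephx1 was the gene of the wider list with peaks in both the H3K4me3 and the WT p53 list. Its WT p53 peak had a fold of 3.62, below that list's median of 4.02, with 17 fragments over 3.97. Of the H3K4me3 peaks of Ephx1 it overlapped only the one with the fold of 4.78, whose summit lay 1337 bp past the start site. Genes of NADPH supply had a peak at 4 of 6, with G6pdx at 1.78 (inside Ikbkg), Pgd at 1.45, Taldo1 at 1.36 and Idh1 at 1.31. Idh1, which encodes cytosolic isocitrate dehydrogenase, also had the K17KO p53 peak of the wider list, with a fold of 5.63 and 10 fragments over 0.956. That peak lay 382 bp outside Idh1 and inside Pikfyve, so it cannot be given to either gene alone. Superoxide and peroxide removal had 2 of 4, Cat at 1.54 and Sod1 at 1.35. Haem and iron genes had 2 of 7, close to the share of all protein-coding genes. These were Blvrb at 2.24 (inside Sptbn4) and Slc40a1, the iron exporter gene, at 1.7, while the ferritin genes Fth1 and Ftl1 had none.

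**Figure D5:**
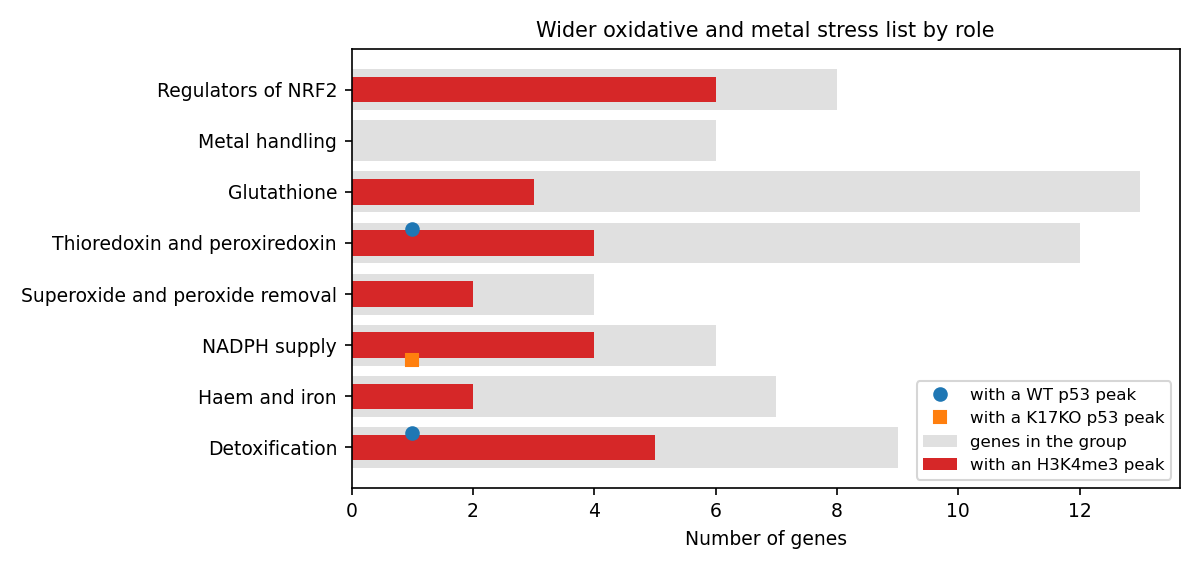
Horizontal bars give, for each role of the wider list, the number of genes (grey) and the number with an H3K4me3 peak (red), and symbols give the number with a WT p53 peak (circle) or a K17KO p53 peak (square) where it is above 0. Regulators of NRF2 reach 6 of 8 and metal handling 0 of 6, and p53 symbols appear for 3 roles with 1 gene each.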

How the data were processed

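Peak lists of 3 kinds were used, with 10 columns and no header. The authors made them from the reads. Bowtie2 2.2.5, SAMtools 1.7, MACS2 2.1.2 and mm10 are named, without role or order, per the submitters' processing notes. Control, threshold and pooling are not given in the sources used. The deposited fold enrichment is a ratio of summit fragments to background. Both −log10 p and −log10 q were deposited as called. The deposited score is 10 times the −log10 p without decimals in 100.0% of peaks and was not used further. Fragments and background were recovered by taking the fold as fragments plus 1 over background plus 1 and p as an upper Poisson tail. A whole number fitted 100.0% of peaks within 0.001 in −log10 p. Intervals cover counting error only.

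Gene positions came from RefSeq GRCm38.p6, without exons; strand came from its promoter windows. Python 3.11.15, pandas 2.3.3 and SciPy 1.17.1 were used, and the scripts were tested on simulated data. All 10 members were named, and of the wider list up to 6 genes per peak list by fold; the others named were chosen after their values were seen. No test was run. The members and lists were chosen with earlier results of these data known. The 7 alternatives changed the window, the assignment, the q-value or the fold limit.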

Additional observations from a re-analysis of the deposited data

How the results depend on the processing

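The WT p53 count of 0 of 10 members held under all 7 alternatives (background 0.822% to 10.8% of protein-coding genes). The K17KO p53 count of 0 became 1 with a window of 20 kb (Nqo1) and was 0 in the other 6. The H3K4me3 count of 6 ran from 5 to 7 except among the 50% of peaks with the highest fold, where it was 3, since that setting drops peaks by construction. In the wider list of 65 genes the WT p53 count of 2 became 7 with a window of 20 kb (background 10.8%). It was 1 with peaks near gene ends only (background 2.72%), 1 in the upper 50% by fold (3.58%) and 0 under a q limit of 0.01 (0.822%). The K17KO count of 1 became 3 at 20 kb (background 5.94%). The H3K4me3 count of 26 became 17 under a q limit of 0.01 (background 18.4%) and 12 in the upper 50% (10.8%). A wider window admits more peaks, and stricter limits remove peaks. Over the 35 reported highest folds and 7 alternatives, 245 cases in all, the gene lost its peak in 42. Fold and q limits can only keep or drop the highest peak, so the remaining folds say little about stability. In 3 cases, all with a window of 20 kb, a different peak's fold lay above the counting interval of the reported peak. These were at Mt1 (2.40, a peak of Mt2), Nfe2l2 (1.87) and Txnip (5.14). The different peak's own counting error was not taken in, so a difference beyond counting error is not shown. No paired analysis was possible because the lists carry no replicate numbers, and no replicate could be left out.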
